A study of Mus musculus with 27 samples.

Results

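The metalloproteinases and their inhibitors were examined as 43 named genes: the matrix metalloproteinases (MMPs), the ADAM and ADAMTS proteases, the 4 tissue inhibitors of metalloproteinases (Timp1 to Timp4) and the membrane-anchored inhibitor Reck. They were chosen by gene name, with earlier results of these data known. A gene was read from the array row that carries its symbol alone, and from the row with the highest mean where there were several. In this way 41 of the 43 genes were measured, of 22180 genes in all. Mmp15 and Adamts2 had no such row and are not analysed here. Mmp7, Mmp11, Adam15 and Adam19 had 2 such rows, and the levels and ranges of the row of lower mean are not given here.

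RNA was measured on 27 arrays, 1 for each of 27 prostate tumours. The tumours came from transgene-positive F2 males of a cross between C57BL/6-Tg(TRAMP)8247Ng/J and PWK/PhJ, taken at 30 weeks or at a humane endpoint. All the animals carried the transgene, whose viral oncogene is driven in prostate epithelium by the probasin promoter (general knowledge, not in the labels), and the tumours form 1 group with no control tissue and no contrast. Results therefore describe how the genes varied among tumours, which are named by animal number. Levels are the authors' log2 values, and a value under 5.79, the median of all rows, is called dim. The array's background was not measured and deposited values went down to 1.68, so dim does not mean undetected.

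MMPs are zinc enzymes that are made as inactive zymogens and cleave collagens, gelatin, elastin, proteoglycans and other proteins of the extracellular matrix. ADAMs are mostly membrane-bound and cut the outer parts of other membrane proteins free (shedding), and ADAMTS enzymes are secreted and cleave proteoglycans, procollagens and fibrillin-associated matrix. TIMPs block the active sites of these enzymes, each with its own preferences. In tumours, many of these genes are known to be transcribed by fibroblasts, macrophages and other stromal cells as well as by the tumour cells. These are whole-tumour samples, in which fewer cells of a type and less RNA per cell cannot be told apart.

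A group of MMP genes lies together on chromosome 9. The protein-coding genes of the RefSeq table were counted along that chromosome. Mmp13, Mmp12, Mmp3, Mmp10, Mmp8 and Mmp7 were genes 15, 16, 18, 20, 21 and 24, so no listed protein-coding gene lies between Mmp13 and Mmp12. Promoter windows were searched for the AP-1 motif TGANTCA, which reads as itself on both strands and is bound by Fos and Jun proteins. Of the 6 genes, 5 had it within the 250 bases before a listed transcription start, and Mmp8 did not. The motif was present in 6.75% of all 32851 windows and in 6 of the 36 windows (16.7%) of the 31 named genes that the table holds. The sixth window belonged to Adam19. The 5 windows are shown because their genes are neighbours that share the motif while their levels among the tumours differed. They are RefSeq sequences of the mouse assembly GRCm38.p6, written 5′ to 3′ with the motif in capitals.
Mmp13, chr9:7272264-7272513, + strand: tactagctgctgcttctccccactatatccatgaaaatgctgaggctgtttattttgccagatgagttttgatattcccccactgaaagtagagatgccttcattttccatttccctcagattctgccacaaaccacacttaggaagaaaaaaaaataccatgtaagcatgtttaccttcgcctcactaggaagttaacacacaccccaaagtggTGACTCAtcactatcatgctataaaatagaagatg
Mmp12, chr9:7347124-7347373, + strand: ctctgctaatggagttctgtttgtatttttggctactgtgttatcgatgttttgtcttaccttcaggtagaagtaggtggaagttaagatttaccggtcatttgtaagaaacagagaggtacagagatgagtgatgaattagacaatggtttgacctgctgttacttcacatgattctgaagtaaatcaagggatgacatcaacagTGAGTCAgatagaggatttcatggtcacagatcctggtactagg
Mmp3, chr9:7445572-7445821, + strand: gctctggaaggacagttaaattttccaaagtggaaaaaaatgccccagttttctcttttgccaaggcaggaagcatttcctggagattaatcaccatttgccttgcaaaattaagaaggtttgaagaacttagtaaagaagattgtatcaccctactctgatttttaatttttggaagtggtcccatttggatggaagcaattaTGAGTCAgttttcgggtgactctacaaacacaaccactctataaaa
Mmp10, chr9:7502092-7502341, + strand: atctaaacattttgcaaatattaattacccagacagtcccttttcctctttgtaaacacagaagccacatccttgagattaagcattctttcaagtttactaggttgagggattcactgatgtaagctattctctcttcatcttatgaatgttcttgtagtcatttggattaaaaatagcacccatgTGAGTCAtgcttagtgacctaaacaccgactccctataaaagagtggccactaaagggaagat
Mmp7, chr9:7691840-7692089, + strand: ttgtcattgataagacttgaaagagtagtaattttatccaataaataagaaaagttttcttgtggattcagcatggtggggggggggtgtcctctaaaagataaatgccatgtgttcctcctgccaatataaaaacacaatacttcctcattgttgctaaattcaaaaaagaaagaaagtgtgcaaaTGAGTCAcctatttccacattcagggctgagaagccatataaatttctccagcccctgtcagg
The motif began 35 bases before the start in Mmp13, 44 in Mmp12, 46 in Mmp3, and 63 in Mmp10 and Mmp7. Mmp12 and Mmp7 each have 2 listed starts, and the window shown is the 1 with the motif. A TATA box, searched as TATAAA on both strands, occurred in 5 of the 36 windows, 13.9% against 12.4% of all windows. The GC box GGGCGG occurred in 18 windows, 50% against 32.7%, and the ETS motif AGGAAG in 14, 38.9% against 29.5%. Such matches describe letters and are not binding data.

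These genes varied more than most genes on the arrays. Their median SD over the 27 tumours was 0.52 log2, against 0.30 for all genes, and 36 of the 41 had an SD above the latter. A range of more than 4-fold was seen in 23 members (56.1%) and in 25.3% of all genes. Genes were not matched for level in these comparisons, and fewer of the members were dim in all tumours. Dim in all tumours were 4 members, 9.76% (Mmp3, Mmp8, Mmp28 and Adamts3), against 28.7% of all genes. A further 21 were dim in some tumours and 16 in none. The highest tumour was at 5.75 for Mmp28 and Mmp3 and 5.71 for Adamts3, just under the level that defines dim, and at 6.05 for Adamts15 and 6.09 for Adamts20, just above it. Levels of different genes come from different probes and are not compared with each other.

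**Figure D1:**
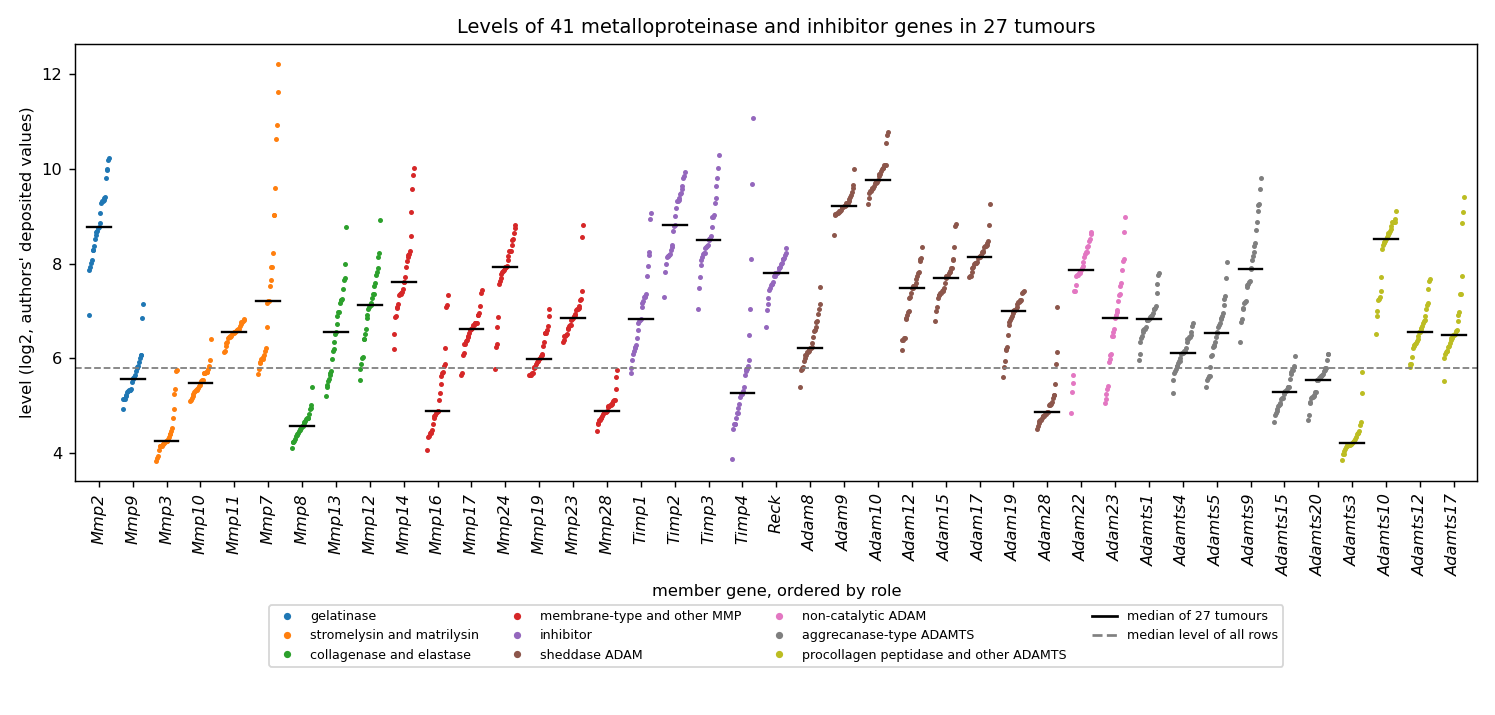
Levels (log2, the authors' deposited values) of the 41 measured genes, ordered by role, with 1 point per tumour sorted within each gene, a bar at the median of 27 tumours and a dashed line at the level under which a value is called dim (5.79). Mmp7 and Timp4 span the widest ranges, and Mmp3, Mmp8, Mmp28 and Adamts3 stay under the line in every tumour.

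Of the gelatinases, which cleave denatured collagen and basement membrane collagen, Mmp2 was well measured throughout. It lay between 6.91 (P803) and 10.23 (P757) with a median of 8.77. Mmp9 was dim in 19 tumours, with a lowest value of 4.92, a median of 5.57 and a highest value of 7.15 in P1276. Its next highest tumours were P966 (6.86) and P471 (6.07).

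Among the stromelysins, proteases of broad range that also activate other MMPs, Mmp3 had a median of 4.25 and Mmp10 was dim in 24 tumours with a highest value of 6.40. Mmp11, which furin activates inside the cell, had the smallest SD of the members (0.19) and lay between 6.13 and 6.82. Mmp7, or matrilysin, is a small MMP made mainly by glandular epithelium. It had the largest SD of the members (1.94 log2). Its level was 5.67 in P912 at the lowest, 7.21 at the median and 12.23 in P219 at the highest, a 94.3-fold range whose lowest value was dim. The next highest were P425 (11.63), P502 (10.93) and P268 (10.63), and these 4 tumours stood above the other 23, of which P569 (9.59) was the highest.

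The collagenases and the elastase cleave fibrillar collagen and elastin. The neutrophil collagenase Mmp8 was dim in all tumours (4.10 to 5.40), as were 6 of 10 neutrophil marker genes. Mmp13, or collagenase 3, lay between 5.19 (P425) and 8.77 (P474) with a median of 6.55, and Mmp12, the macrophage elastase, between 5.55 (P235) and 8.92 (P474) with a median of 7.12. P474 was the highest tumour for both, and P425 and P502 were among the 5 lowest for both.

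The membrane-type MMPs act at the cell surface. Mmp14, the main activator of the Mmp2 zymogen, ranged 14.3-fold from 6.19 (P237) through a median of 7.61 to 10.03 (P966). Its 3 highest tumours, P966, P471 (9.87) and P1276 (9.59), were followed by P1394 at 9.08. Mmp24, a membrane-type enzyme known from the nervous system, had a median of 7.93 and fell to 5.77 in P471. Mmp16, another transmembrane type, was dim in 21 tumours and reached 7.34 in P500, 7.13 in P1225 and 7.07 in P609. Mmp17, which a lipid anchor holds to the membrane, lay between 5.64 and 7.44. Mmp23 was at 8.82 in P966 and 8.57 in P471 and at 7.42 or less elsewhere, and Mmp19, a secreted enzyme, lay between 5.65 and 7.03.

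All 5 inhibitors were measured. Timp1 ranged 10.4-fold from 5.68 (P912, dim) through 6.82 to 9.06 (P503), and was next highest in P1276 (8.95), P471 (8.24) and P235 (8.18). Timp2, which also forms the complex in which Mmp14 activates Mmp2, ranged from 7.30 (P509) through 8.82 to 9.94 (P425). Timp3, which binds to the matrix and also inhibits Adam17, ranged from 7.04 (P803) through 8.50 to 10.30 (P1469). Reck ranged less, from 6.66 (P1276) through 7.80 to 8.32 (P1225). Timp4 had the widest range of the members, 149-fold. It was dim in 20 tumours with a lowest value of 3.86 and a median of 5.25, and it was high in P425 (11.08), P219 (9.68) and P502 (8.09), followed by P268 (7.03). These were also the 4 highest tumours for Mmp7, an observation made after the values were seen.

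Of the sheddases, Adam10, which releases Notch and cadherins, lay between 9.26 (P803) and 10.78 (P471) with a median of 9.77. Adam17, which releases tumour necrosis factor and ligands of the epidermal growth factor receptor, lay between 7.71 (P803) and 9.26 (P471) with a median of 8.14. Adam9 (8.60 to 9.99), Adam12 (6.17 to 8.35), Adam15 (6.78 to 8.83), Adam8 (5.38 to 7.51) and Adam19 (5.60 to 7.42) were above the dim level in most tumours. Adam28 was dim in 24 and reached 7.08 in P219. Both non-catalytic ADAMs, neural surface proteins that bind the secreted Lgi proteins, varied widely. Adam22 lay between 4.84 (P471) and 8.67 (P1394) with a median of 7.87, and Adam23 between 5.05 (P1394) and 8.99 (P1225) with a median of 6.85. The tumour with the highest Adam22 thus had the lowest Adam23.

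The aggrecanase-type ADAMTS genes encode enzymes that cleave aggrecan and versican. The largest SD among them was that of Adamts9 (0.92 log2), which ranged from 6.34 (P803) through 7.88 to 9.81 (P503). Adamts5 ranged from 5.40 through 6.53 to 8.04, Adamts1 from 5.96 to 7.81 and Adamts4 from 5.25 to 6.73, and Adamts15 and Adamts20 were dim in 25 and 24 tumours. Adamts10 and Adamts17, whose proteins are linked to fibrillin microfibrils, ranged from 6.51 (P425) through 8.52 to 9.10 (P503) and from 5.52 (P757) through 6.49 to 9.41 (P966). Adamts12 lay between 5.82 and 7.67.

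Several of these genes separated the tumours. A mixture of normal curves placed 8 of the 41 members (19.5%) in 2 clusters, against 7.90% of all genes. To place these clusters, each tumour was scored by the mean of its centred log2 values over neuroendocrine marker genes, such as those of secretory granules, and over luminal epithelium markers, such as Cdh1 and Krt8. The neuroendocrine score was low in 4 tumours (P471, P966, P425 and P1276, -3.03 to -1.75), while the remaining 23 ranged from -0.10 to 0.94. The luminal score was high in 8 tumours (those 4 and P219, P803, P1469 and P569, 2.01 to 2.76), while the remaining 19 ranged from -1.54 to 0.55. No member is in either list.

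Adam22 was low in exactly the 4 tumours of low neuroendocrine score, where it was dim at 4.84 to 5.63, against 7.41 to 8.67 in the other 23. The ranges did not overlap (Ashman's D, the distance between the cluster means in units of their SD, 7.77). It was the only member below all other tumours in those 4, and 2.84% of all genes were. No member was above all others there, against 1.60% of all genes. Mmp24 was low in the same 4 tumours and in P569 (5.77 to 6.87 against 7.57 to 8.82). Those 5 tumours also had the 5 lowest values of Reck (6.66 to 7.43), although Reck formed no separate clusters.

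Adamts17 was high in 3 of the 4 tumours of low neuroendocrine score, P966 (9.41), P471 (9.09) and P1276 (8.85), against 7.74 at most elsewhere. The same 3 tumours had the highest Mmp14, the highest Adam10 (10.54 to 10.78, against 10.09 at most elsewhere) and the highest Mmp9. P425, the other tumour of low neuroendocrine score, had 6.97 for Adamts17 and 7.61 for Mmp14, inside the range of the other tumours. Mast cell markers also stood out in P966 (score 2.56) and P471 (1.85) but not in P1276 (-0.48), although Kit, in the same list, was lowest in P471 (6.77). P471 also had the highest fibroblast (1.39), macrophage (1.12) and T and NK cell (1.65) scores. The part of mast cells and of T and NK cells in these levels was not tested.

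Adamts10 was low in exactly the 8 tumours of high luminal score, at 6.51 to 7.72 against 8.31 to 9.10 in the other 19 (Ashman's D 5.93). Adam22 was also below all other tumours in those 8, where it reached 7.74 at most against 7.75 at least elsewhere, a small gap. These were the 2 members of 41 below all others in that set, against 0.600% of all genes, and none was above, against 0.933%. Adam19 was low in 7 tumours (5.60 to 6.48 against 6.71 to 7.42), 6 of the 8 and P311. Timp2 was high in the 8, at 9.34 to 9.94, and overlapped slightly with the other 19, which reached 9.39.

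Timp4 and Adam28 each had 3 tumours in the upper cluster, of which P219 and P425 were shared. Adam28 was at 7.08 in P219, 6.13 in P425 and 5.88 in P1469. Smooth muscle markers were highest in the same pair of tumours (scores of 2.24 in P219 and 2.03 in P425, next 0.69), as were adipose markers (2.93 in P425 and 1.34 in P219). Skeletal muscle markers were highest in P219 (3.12) and P268 (2.24, next 0.61). The part of these cell types in the Timp4, Mmp7 and Adam28 levels was not tested. P502 and P268, the other tumours with high Timp4 and Mmp7, had smooth muscle scores of -0.02 and 0.33. Mmp3 also formed 2 clusters, but all of its values were dim.

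**Figure D2:**
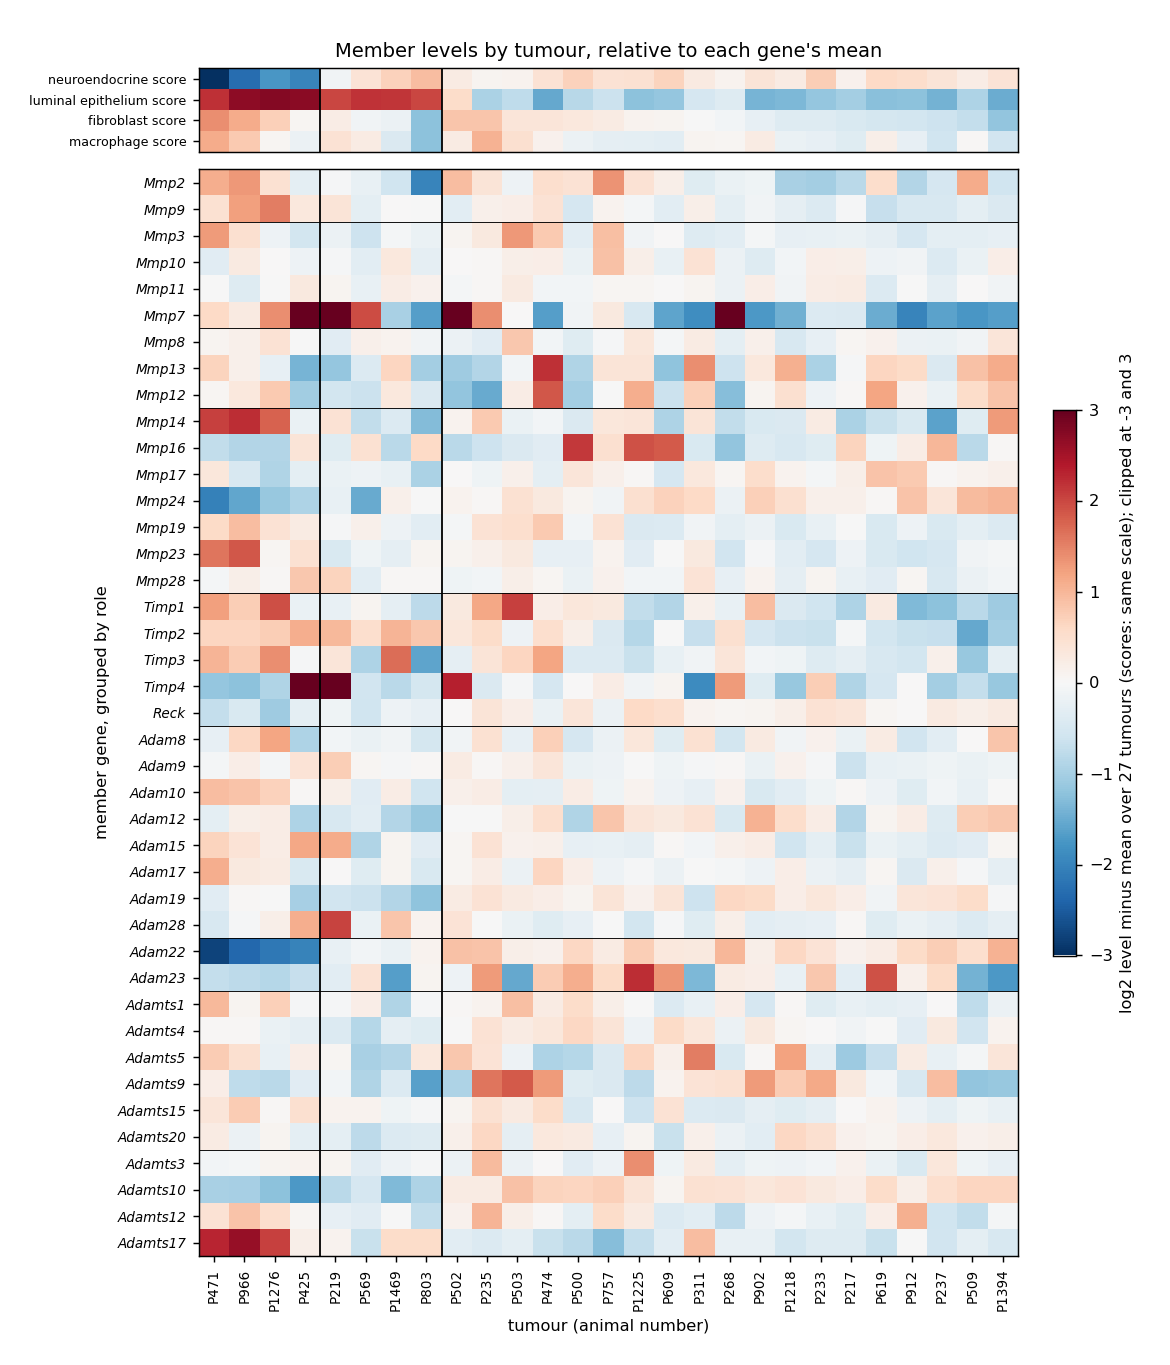
Log2 level of each member minus its mean over 27 tumours (clipped at -3 and 3), with 4 marker scores on the same scale above. Tumours to the left of the first vertical line have low neuroendocrine scores and those to the left of the second have high luminal scores: Adam22 is low in the first 4 columns, Adamts10 in the first 8, and Mmp14 and Adamts17 are high in the first 3.

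**Figure D3:**
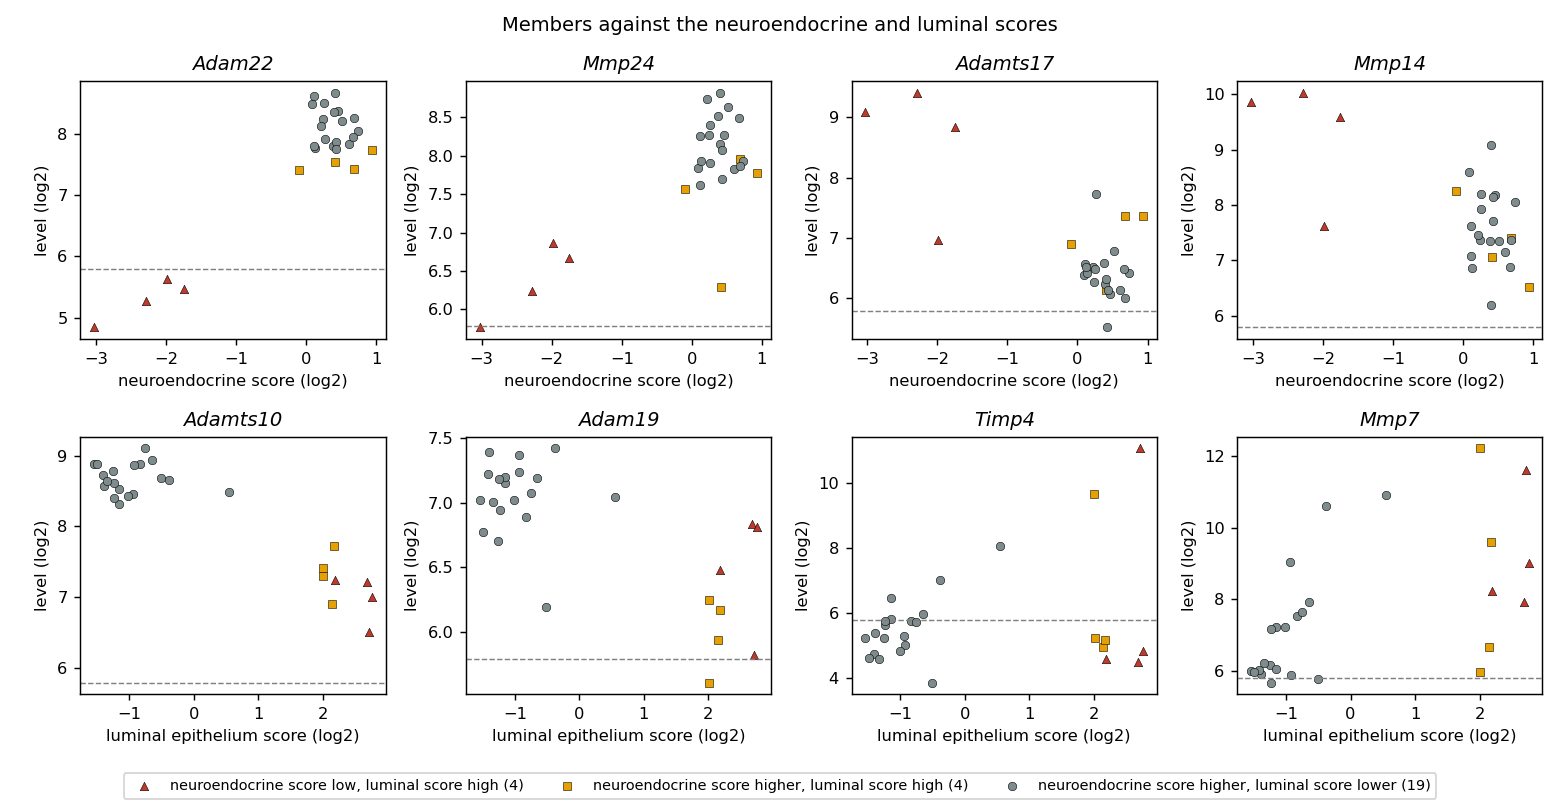
Level of 8 members (log2) against the neuroendocrine or the luminal epithelium score, 1 point per tumour, with triangles for the 4 tumours of low neuroendocrine score, squares for the other 4 of high luminal score, circles for the remaining 19 and a dashed line at the dim level (5.79). Adam22 separates the triangles (4.84 to 5.63) from all other tumours (7.41 or more), and the high values of Timp4 and Mmp7 are spread over all 3 kinds of point.

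The genes most like the widely varying members differed from member to member. Over 27 tumours, Adam22 was nearest to the secretory granule genes Scg3 (r = 0.977) and Scg5 (0.962) and the neuronal RNA-binding protein gene Elavl4 (0.965). Mmp14 was nearest to the Hedgehog signal transducer gene Smo (0.857), Igfbp4 (0.839) and the ion channel gene Trpv4 (0.819), and Adamts17 to S100a14 (0.927), Padi3 (0.917) and Zbtb7c (0.912). Timp4 was nearest to Tspan8 (0.941), Slc10a5 (0.937) and Tmem238l (0.931), and Mmp7 to Clu (0.888), Dpp4 (0.885) and Des (0.884). Adam23 was nearest to the imprinted noncoding RNA gene Rian (0.732), Ank2 (0.696) and Mir380 (0.664), and Adamts9 to Pdpn (0.729), Cd34 (0.675) and Mir99ahg (0.666). For Mmp13, the nearest gene of all was Mmp12 (0.834), ahead of Tars (0.752) and Ndufa4l2 (0.736). These correlations describe genes measured in the same tumours and share whatever differs between them, such as cell composition.

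Pairs of enzymes, activators and inhibitors taken from textbook relations were then compared over the tumours. Of 24 named pairs 23 could be measured, and they gave 24 relations, since pairs with a clustered member were taken within clusters. Of these, 6 passed for Pearson's r after Benjamini-Hochberg adjustment over 48 permutation p-values, all with a positive r, and 4 of the 6 passed for Spearman's rho too.

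Mmp12 and Mmp13, neighbours on chromosome 9, varied together most closely (r = 0.834, rho = 0.817, adjusted p = 2.4e-04 for both, n = 27). The unadjusted p of 1e-05 is the smallest the permutations can give. Without the 2 tumours farthest on Mmp12, P474 and P235, r was 0.790. The relation was as close within the 23 tumours of higher neuroendocrine score (r = 0.859), within the 19 of lower luminal score (0.866) and in residuals after the fibroblast score (0.833). Its cause was not tested, and the labels do not give the genotypes of these F2 animals at the neighbouring genes. Mmp3, which lies nearby, did not pass with Mmp13 (r = -0.185, adjusted p = 0.55, within the 22 tumours of its lower cluster), and it was dim throughout.

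The other 5 pairs that passed had a smaller r. Timp3 and its target Adam17 had r = 0.620 (rho = 0.570, adjusted p = 0.0090 and 0.016), and leaving out P1469 and P1276, the farthest on Timp3, gave 0.673. This pair passed with any 1 tumour left out. Both sheddases, Adam10 and Adam17, had r = 0.626 (rho = 0.556, adjusted p = 0.0090 and 0.020), but 0.392 without P471 and P966, and Timp1 and Mmp9 had r = 0.599 (rho = 0.510, adjusted p = 0.0090 and 0.035) and 0.479 without P503 and P1276. Mmp2 with its activator Mmp14 had r = 0.518 (adjusted p = 0.032) and Timp1 with Mmp14 r = 0.517 (adjusted p = 0.032), but neither passed for rho (0.448 and 0.478, adjusted p = 0.076 and 0.055).

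Within the 23 tumours of higher neuroendocrine score none of these 5 passed. There r was 0.589 for Timp3 and Adam17 (adjusted p = 0.061), 0.407 for Timp1 and Mmp9, 0.379 for Adam10 and Adam17, 0.317 for Mmp2 and Mmp14 and 0.252 for Timp1 and Mmp14. Nor did any of the 5 pass in residuals after the fibroblast score, where r was 0.388 for Timp3 and Adam17, 0.309 for Adam10 and Adam17, 0.286 for Timp1 and Mmp9, 0.145 for Mmp2 and Mmp14 and 0.120 for Timp1 and Mmp14.

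Some textbook partners did not pass. Timp2, the third component of the Mmp2 activation complex, had r = 0.176 with Mmp14 (adjusted p = 0.53) and 0.017 with Mmp2 (adjusted p = 0.95). Reck, an inhibitor of both, had r = -0.438 with Mmp14 (adjusted p = 0.076, rho = -0.198), and -0.104 without P1276 and P471. Adam8 and Mmp9, both known from myeloid cells, had r = 0.468 (adjusted p = 0.057), and Adam22 and Adam23 had r = 0.147 within the 23 tumours of higher neuroendocrine score (adjusted p = 0.65). With 27 tumours, a p that misses the threshold does not show that 2 genes vary independently.

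**Figure D4:**
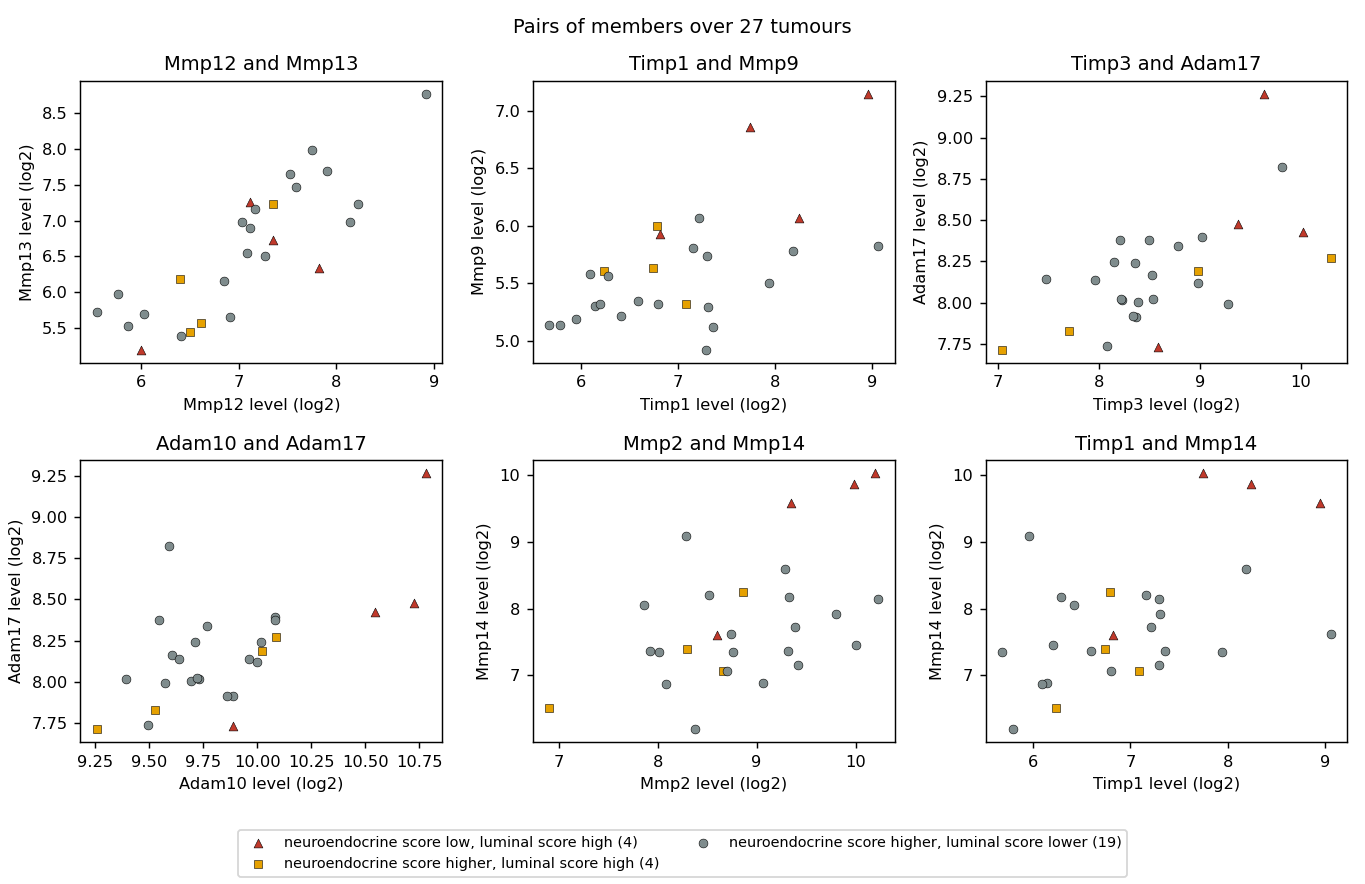
Levels (log2) of the 6 pairs of members that passed for Pearson's r, 1 point per tumour over 27 tumours, with triangles for the 4 tumours of low neuroendocrine score, squares for the other 4 of high luminal score and circles for the remaining 19. Mmp12 and Mmp13 rise together over the 27 tumours and among the 19 circles, and no r was taken among the triangles or the squares. The upper right of the panels with Mmp14, Mmp9 and Adam10 is held by triangles.

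To relate the genes to the stroma and to proliferation, every gene on the arrays was fitted with limma on 3 scores, each scaled to SD 1: a fibroblast score (11 measured genes such as Dcn, Lum and Col1a1), a macrophage score (13 genes such as Adgre1 and Csf1r) and a mitosis score (13 genes such as Bub1 and Aurkb). The slope is the log2 change per SD of the score. A member rose or fell when its p, adjusted by Benjamini-Hochberg over all genes tested, was under 0.05.

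With the fibroblast score, 12 members rose and 2 fell (14 of 41, 34.1%), where 8.94% of all genes passed, 5.73% rising and 3.21% falling. The members' median slope was 0.09, against -0.01 for all genes, and 32 of the 41 slopes (78.0%) were above 0, against 44.7%. Both gelatinases rose, Mmp2 by 0.55 ± 0.11 (SE, adjusted p = 0.0030) and Mmp9 by 0.31 ± 0.08 (adjusted p = 0.012). Mmp14, the Mmp2 activator, rose by 0.61 ± 0.14 (adjusted p = 0.0084), Mmp23 by 0.35 ± 0.09 and Mmp19 by 0.30 ± 0.06 (adjusted p = 0.0015). Mmp3 passed as well (0.31 ± 0.08), with all values dim.

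Of the inhibitors, Timp1 had the steepest rise of the members that passed (0.65 ± 0.12, adjusted p = 0.0018) and Timp3 rose by 0.45 ± 0.12 (adjusted p = 0.016). Timp2 (0.36 ± 0.12, adjusted p = 0.058), Timp4 and Reck (-0.15 ± 0.07, adjusted p = 0.20) did not pass. Both main sheddases rose, Adam10 by 0.27 ± 0.05 (adjusted p = 0.0023) and Adam17 by 0.22 ± 0.05 (adjusted p = 0.011), and so did Adamts12 (0.27 ± 0.08) and Adamts1 (0.26 ± 0.07). The 3 collagenase and elastase genes did not pass. Those that fell were the neural genes Adam22 (-0.57 ± 0.17, adjusted p = 0.030) and Mmp24 (-0.48 ± 0.12, adjusted p = 0.012). The largest slope of all, that of Mmp7 (0.95 ± 0.32), had adjusted p = 0.059.

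The number of calls depended on which tumours were included. P471 (1.39) and P966 (1.12), both of low neuroendocrine score, had the highest fibroblast scores. Without P471, 5 of the 14 members passed (Mmp2, Mmp9, Mmp19, Timp1 and Adam10; 12.2%, against 1.78% of all genes), and without P966, 9 (21.95%, against 3.63%). Over all 27 tumours, 20 members and 4826 of 22169 genes had an unadjusted p under 0.05 (limma). That count of all genes was not taken for subsets or covariate fits, here or below. Within the 23 tumours of higher neuroendocrine score 15 members were under that unadjusted level. After adjustment no member passed there by limma, where 0.383% of all genes passed. The slopes there were 0.53 ± 0.13 for Timp1 (adjusted p = 0.076), 0.46 ± 0.13 for Mmp2 (adjusted p = 0.14), 0.21 ± 0.06 for Mmp19 (adjusted p = 0.17), 0.22 ± 0.13 for Mmp14 and 0.0038 for Adam22. Within the 19 tumours of lower luminal score 1 member passed, Timp2, which had not passed over all 27 tumours, and 0.510% of all genes did.

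Other cell types moved with the fibroblast score. Of the 13 macrophage markers 11 rose with it, as did 5 of 8 endothelium markers, while 10 of 15 neuroendocrine markers fell and 4 of 6 mast cell markers rose (Kit fell). The fibroblast and macrophage scores had r = 0.787 over the 27 tumours. With the macrophage score as a covariate no member passed (12 at an unadjusted p under 0.05, limma). After adjustment 7 genes of all passed, so both stromal scores cannot be told apart for these genes.

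With the macrophage score, 4 members rose and none fell (9.76%), where 3.14% of all genes passed, 2.62% rising. They were Timp1 (0.63 ± 0.12, adjusted p = 0.0029), Mmp14 (0.56 ± 0.15, adjusted p = 0.034), Mmp2 (0.51 ± 0.12, adjusted p = 0.013) and Mmp19 (0.25 ± 0.06, adjusted p = 0.021), and all 4 had also risen with the fibroblast score. The macrophage elastase Mmp12 had a slope of -0.09 ± 0.16 (adjusted p = 0.85). Timp1 was the 1 member that also passed within the 23 tumours of higher neuroendocrine score (0.58 ± 0.12, adjusted p = 0.011) and within the 19 of lower luminal score (0.72 ± 0.12, adjusted p = 0.0031). With the fibroblast score as a covariate its slope was 0.31 ± 0.19, no member passed, and 2 had an unadjusted p under 0.05 (limma). Without P471, 1 member passed over the remaining tumours (1.04% of all genes did), and without P966, 2 (1.90%). Without P425, 7 passed (4.63% of all genes).

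With the mitosis score, 3 members rose and 5 fell (19.5%), where 24.9% of all genes passed, 11.9% rising and 12.9% falling. Adamts10 (0.53 ± 0.10, adjusted p = 3.8e-04), Adam22 (0.55 ± 0.17, adjusted p = 0.019) and Adam19 (0.30 ± 0.08, adjusted p = 0.0062) rose. Adam19 has 2 array rows, and it did not pass when the mean of all rows of a gene was used. Mmp24, also low in the tumours of low neuroendocrine score, did not pass (0.23, adjusted p = 0.25). Timp4 (-0.88 ± 0.25, adjusted p = 0.011), Timp2 (-0.36 ± 0.12, adjusted p = 0.027), Adam28 (-0.32 ± 0.09), Adam15 (-0.27 ± 0.08) and Mmp28 (-0.21 ± 0.04, dim in all tumours) fell.

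P425 had the lowest mitosis score (-1.86, next -0.43) and the highest Timp4, Timp2, Adam15 and Mmp28. Without it Timp4 had a slope of 0.0077 and no longer passed, nor did Timp2, Adam15 and Adam22, while Mmp9, Mmp17 and Adamts20 did. That left 7 members (17.1%), against 12.7% of all genes. Along the mitosis score 11 of 13 luminal epithelium markers and 7 of 9 smooth muscle markers fell, and their part in the members' slopes was not tested beyond the following. With the luminal score as a covariate 1 member passed (Mmp28; 2.44%, against 8.80% of all genes). Within the 19 tumours of lower luminal score none passed (8 at an unadjusted p under 0.05, limma), where 2.60% of all genes passed after adjustment. Within the 23 of higher neuroendocrine score the 3 that rose did (7.32%, against 10.03% of all genes).

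**Figure D5:**
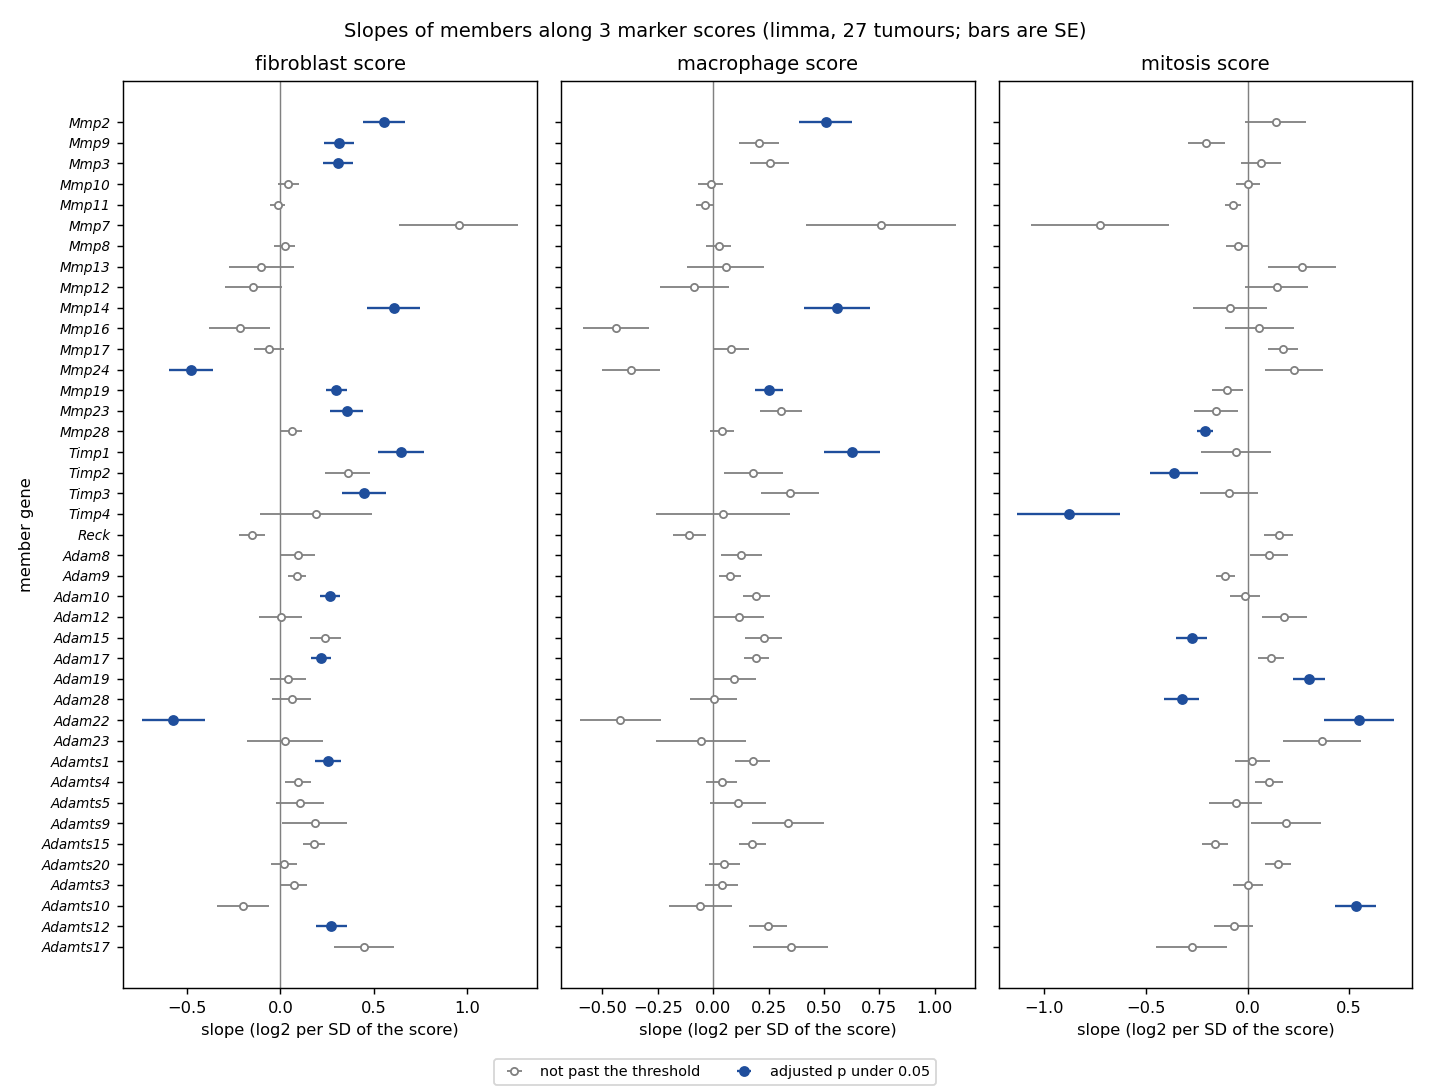
Slope of each member (log2 per SD of the score, limma over 27 tumours; bars are SE) along the fibroblast, macrophage and mitosis scores, with filled points for adjusted p under 0.05. Timp1, Mmp14, Mmp2 and Mmp19 are filled and above 0 in the first and second panels, and Timp4 has the most negative slope in the third.

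Other genes of these pathways, in lists apart from the members, moved as follows along the fibroblast score, and none of them fell. In that fit 5.73% of all genes rose. Among genes of the plasminogen system and the proprotein convertases, which both activate zymogens, 3 of 11 rose: the plasminogen activators Plat (1.07 ± 0.18) and Plau (0.43 ± 0.11) and the receptor Plaur (0.32 ± 0.09). Of other regulators of metalloproteinases 4 of 11 rose, among them Thbs2, which promotes the uptake of Mmp2 (1.14 ± 0.18), the Mmp9 and Mmp7 docking receptor Cd44 (0.92 ± 0.16) and Pcolce, the enhancer of procollagen cleavage (0.34 ± 0.07). Of 24 other proteases of the superfamily 2 rose, among them the procollagen C-proteinase Bmp1 (0.25 ± 0.06).

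Among matrix substrates 10 of 18 rose, led by fibronectin (Fn1, 0.77 ± 0.09) and biglycan (Bgn, 0.76 ± 0.06), which like the score's own genes are products of stromal cells. Of the proteins that Adam10 or Adam17 shed 3 of 13 rose, Il6ra (0.42 ± 0.12), the growth factor Btc (0.31 ± 0.07, dim in 25 tumours) and Tnf (0.29 ± 0.08, dim in 23). Of 9 partners of Adam10 and Adam17 3 rose: the iRhom genes Rhbdf1 (0.46 ± 0.13) and Rhbdf2 (0.31 ± 0.09), which carry Adam17 to the cell surface, and Tspan15 (0.33 ± 0.10), a tetraspanin partner of Adam10. With the macrophage score, 2.62% of all genes rose (limma). Genes that rose numbered 0 of 11 in the plasminogen and convertase list, 3 of 11 other regulators and 1 of 24 other proteases. They numbered 3 of 18 substrates, 0 of 13 shed proteins and 0 of 9 partners.

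With the mitosis score, 11.9% of all genes rose and 12.9% fell. Without P425, 12.7% of all genes passed in either direction, against 24.9% with it, and the lists were not followed without P425. Of the plasminogen and convertase list 3 of 11 genes fell, among them the zymogen-activating convertase Furin (-0.32 ± 0.08). So did 2 of 11 other regulators, 2 of 24 other proteases and 3 of 18 matrix substrates. Of the 13 shed proteins Cdh2, an Adam10 substrate, rose (0.53 ± 0.11) and 3 fell, among them Cx3cl1 (dim in 15 tumours) and Il6ra (both -0.47). Of the 9 sheddase partners Tspan17 rose and Rhbdf1 (-0.48 ± 0.13) and Tspan33 fell.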

How the data were processed

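The tumours were snap-frozen, total RNA was isolated and a GeneChip kit was used for biotin labelling, per the labels. The authors deposited log2 expression levels for 41345 rows on 27 arrays, which ran from 1.68 to 14.5 with array medians of 5.67 to 5.82. Partek is named as software per the submitters' processing notes. How background was corrected and arrays were normalized is not given in the sources, and differences so removed or added cannot be seen. The number of arrays limits the precision, and each array is a different animal.

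Rows were named through the platform's probe table, and 22180 genes had a row of their own symbol alone. Of these, 22169 were tested along the fibroblast score and 22167 along the macrophage and the mitosis score. A list's score was the mean of its genes' log2 values centred over tumours. Genes were fitted on scores scaled to SD 1 with lmFit and trended eBayes of limma 3.58.1 (R 4.3.3), without the list's own genes, with Benjamini-Hochberg adjustment over all genes and a threshold of 0.05. The fits were tested on simulated data. Clusters were called with mclust 6.1.1 where the BIC of 2 components exceeded that of 1 by over 6, with Ashman's D above 2 and 3 or more tumours in the smaller. Two-sided p-values of pairs came from 100000 permutations, and from exact enumeration for clusters under 9 tumours. RefSeq promoter sequences (GRCm38.p6) were matched by symbol.

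The members, lists and pairs were chosen with earlier results of these data known. The text names members, for each list the genes with the largest slopes (at most 4), and for the 8 members of largest SD the 3 nearest genes by Pearson's r (accession, BC, LOC, Gm and Rik symbols skipped); Tspan17, Kit, single tumours and shared extremes outside this rule were named after their values were seen. Alternatives covered the scaling, the filter on dim genes, the rows used, covariates and left-out tumours.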

Additional observations from a re-analysis of the deposited data

How the results depend on the processing

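Members passing along the fibroblast score numbered 14 of 41, against 8.94% of all genes. They numbered 14 to 17 under quantile normalization, centred arrays, the filter on dim genes, z-scored scores, the mean of all rows, animal number as a covariate, no trend, or without P425, P219 and P268. In these settings 7.63% to 13.4% of all genes passed. With the filter the count was 15 of 30 members tested: Mmp9 and Mmp3 were left out, and Mmp7, Timp2 and Adam15 passed. Members passing numbered 8 with the luminal score (4.10% of all genes) and 0 with the macrophage score as a covariate (0.0316%). They numbered 0 within the higher neuroendocrine cluster (0.383%) and 1 within the lower luminal cluster (0.510%). Leaving out each tumour gave 5 to 18, where 1.78% to 11.9% of all genes passed. Along the macrophage score the count of 4 became 0 with the fibroblast score (0.158% of all genes) and 8 with animal number as a covariate (3.73%). It was 1 within either cluster (0.871% and 0.884%), 4 or 5 otherwise (2.93% to 3.87%), and 1 to 7 with each tumour left out (1.04% to 4.63%). Along the mitosis score 8 became 5 with the filter (30 members tested), 1 with the luminal score as a covariate, 3 without P425, P219 and P268, 3 and 0 within the higher neuroendocrine and the lower luminal cluster, 7 to 10 otherwise, and 7 to 9 with each tumour left out. The 6 pairs became 1 in residuals after the fibroblast score and 1 within either cluster, 6 to 8 otherwise, and 3 to 8 with each tumour left out, with 3 without P471 or P1276. Of the 4 members dim in all tumours 0 were left at a dim level 0.5 lower and 6 members were dim at one 0.5 higher. The cluster alternatives were chosen after seeing the data, and they hold fewer tumours. The unadjusted counts beside each 0 are given with the results.

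Among members that passed over all tumours, the slopes that changed sign were those of Adam22 along the fibroblast score within the higher neuroendocrine cluster (0.0038) and of Timp4, Timp2 and Adam19 along the mitosis score. Timp4 had 0.24 without P425, P219 and P268, -0.98 to 0.0077 with each tumour left out (the latter without P425) and 0.27 within the lower luminal cluster, where Timp2 had 0.045 and Adam19 -0.0019. The cause was not tested. No paired analysis was possible because the tumours form 1 group.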
